A study of Mus musculus with 17 samples.

Results

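Il2ra, Il15ra, Il7r, Osm, Socs1 and Pim2 are cytokine receptor, cytokine and cytokine-induced genes of T cells that lie in the first 12 Mb of their chromosomes. They were taken by name, 6 rows of the 47643 in the count table, of which 3438 belong to genes that start in the first 12 Mb. The RNA came from regulatory T cells (Tregs), sorted as Foxp3-GFP+ cells after CD4 enrichment from the spleen of NOD mice, an inbred strain prone to autoimmune diabetes. The 17 libraries comprised 6 from NOD-60A Tg+ mice, which carry an Nfkbid transgene, 5 from NOD-Nfkbid-KO mice, which lack Nfkbid, and 6 from NOD controls. All groups carry the Foxp3-GFP reporter. Nfkbid encodes an atypical IkB protein of the nucleus that modulates NF-kB. Per the series' design text, transgenic libraries were made from 1 sample each and the others from pools of 2 samples, although the names of control replicates 3 and 6 can be read as ranges of 3 numbers. The promoter of the transgene and the age and sex of the mice are not given in the sources used here. All libraries share 1 batch date. The numbers in the names of the count columns form separate runs for transgenic and knockout libraries, with the controls spread over several. What these numbers stand for is not given.

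IL-2, IL-7 and IL-15 signal through receptors that share the common gamma chain, and activate JAK kinases and the transcription factor STAT5. Tregs carry high levels of the IL-2 receptor alpha chain CD25, depend on interleukin-2 made by other T cells and usually hold little IL-7 receptor. STAT5 in turn induces feedback inhibitors such as SOCS1 and survival kinases of the PIM family. Oncostatin M and leukaemia inhibitory factor (LIF), whose genes are neighbours, are cytokines of the interleukin-6 family.

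Il2ra (ENSMUSG00000026770) is at chr2:11642807-11693193 and Il15ra (ENSMUSG00000023206) at chr2:11705290-11734317, both on the plus strand of GRCm38 with 12.1 kb between them. Il7r (ENSMUSG00000003882) is at chr15:9505788-9530176 on the minus strand. Osm (ENSMUSG00000058755) is at chr11:4236420-4241026 on the plus strand. Socs1 (ENSMUSG00000038037) is at chr16:10782240-10785536 on the minus strand. Pim2 (ENSMUSG00000031155) is at chrX:7878262-7883432 on the plus strand.

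Promoter windows of 250 bases before to 50 after the annotated start show the kinds of regulatory letters these genes carry in the reference strain, since RefSeq's sequence is not that of NOD mice. Each window was searched on both strands for the STAT motif TTCNNNGAA, found in 8.3% of 32851 windows of this length, and the NF-kB motif, GGG followed by any 5 bases and CC, found in 50.8%. The windows below are those of the neighbours Il2ra and Il15ra and of Il7r, the only one with a STAT match among the 6 windows of the 5 genes that had one. Capitals mark motif matches.
Il2ra, chr2:11642542-11642841, plus strand: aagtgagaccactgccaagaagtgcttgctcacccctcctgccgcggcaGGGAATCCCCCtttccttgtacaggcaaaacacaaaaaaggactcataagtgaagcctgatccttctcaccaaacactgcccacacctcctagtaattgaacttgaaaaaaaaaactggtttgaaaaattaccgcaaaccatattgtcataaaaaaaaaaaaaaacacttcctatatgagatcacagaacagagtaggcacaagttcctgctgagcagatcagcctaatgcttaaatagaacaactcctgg
Il15ra, chr2:11705043-11705342, plus strand: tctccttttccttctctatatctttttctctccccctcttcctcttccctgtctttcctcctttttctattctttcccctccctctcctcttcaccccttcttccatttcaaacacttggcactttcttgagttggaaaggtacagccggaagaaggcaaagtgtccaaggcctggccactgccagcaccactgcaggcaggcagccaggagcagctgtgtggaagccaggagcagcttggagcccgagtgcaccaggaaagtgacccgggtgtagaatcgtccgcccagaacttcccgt
Il7r, chr15:9529827-9530126, minus strand: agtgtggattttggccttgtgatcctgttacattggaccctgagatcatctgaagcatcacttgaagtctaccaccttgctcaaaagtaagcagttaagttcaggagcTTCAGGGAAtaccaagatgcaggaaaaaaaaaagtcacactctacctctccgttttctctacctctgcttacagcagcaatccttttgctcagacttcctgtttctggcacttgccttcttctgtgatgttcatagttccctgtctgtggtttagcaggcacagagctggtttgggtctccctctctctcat
In Il2ra the capitals are 2 overlapping NF-kB matches. The Il15ra window shown held neither motif, and a second annotated start of Il15ra had 1 NF-kB match. The Socs1 window held 3 NF-kB matches and the Pim2 window neither motif.

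Row names in this table have to be read with care, also near chromosome starts. The row of B2m, a gene used by almost every cell, was at 0 counts in each library, and that of Actb at 0 to 7. The Nfkbid row, 30.4 Mb along chromosome 7, held 24 to 33 counts in the transgenic libraries, 8 to 31 in the knockout libraries and 11 to 21 in the controls. Knockout and control libraries overlapped there, with knockout replicates 2 and 4 below every control and replicate 1 above every control, and since the row's identity is not established it does not check the labels, so transgenic and knockout below mean libraries so labelled. Moving every row's exons along the chromosome in proportion to position gave the best agreement of mean counts with exon overlap at 0.45 kb per Mb among 13 slopes, with a mean Spearman's rho of 0.5 over 20 chromosomes and across rows, against 0.441 unmoved and 0.376 at the mirrored slope. At that slope the rows of the 6 genes would move by 1.91 kb (Osm) to 5.27 kb (Il15ra). Of their exon bases, 26.1% would then still lie on the gene's own exons for Il7r, 13.4% for Pim2, 12.1% for Osm, 4.8% for Il2ra, 2.4% for Il15ra and 0% for Socs1. For Pim2, 902 bases would lie on exons of its neighbour Slc35a2, and for Socs1, 554 on Tnp2. A scan of up to 20 kb over the rows within 2 Mb of each gene peaked at distances from -7.5 kb (Pim2) to 17 kb (Il7r). Il2ra and Il15ra peaked at 6.5 kb, Osm at 1.5 kb and Socs1 at 14.5 kb. The slope gives each gene its own distance, 5.25 kb for Il2ra, 4.85 kb for Socs1, 4.28 kb for Il7r and 3.55 kb for Pim2. The peaks of Il2ra, Il15ra and Osm lay near these distances and the others did not. The names below are therefore those of the rows, and whether each row holds only reads of its gene is not established.

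**Figure D1:**
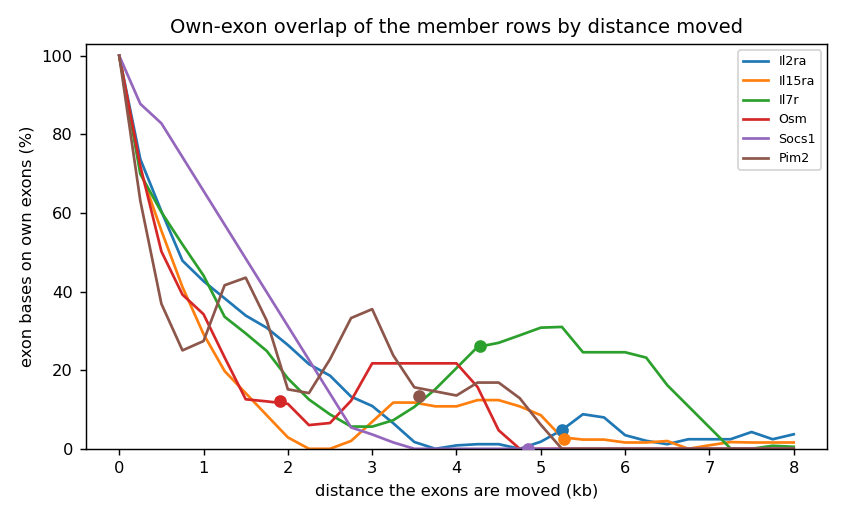
Share of each row's exon bases (%) that stay on the exons of the same gene when they are moved along the chromosome by the distance on the x axis (kb). Dots mark the distance given by 0.45 kb per Mb, where Il7r keeps 26.1% and Socs1 0%.

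Totals ran from 3210568 to 3366515 counts in the transgenic libraries, 3462586 to 3705953 in the knockout libraries and 3133388 to 4726615 in the controls, and 3 counts amounted to 0.635 to 0.957 CPM, counts scaled to a common library size. Rows above 0 numbered 15801 to 16705 in the transgenic libraries, 13476 to 15931 in the knockout libraries and 15815 to 17379 in the controls. The mitochondrial share of counts was 19.66 to 24.81% in the transgenic libraries, 22.04 to 28.16% in the knockout libraries and 20 to 24.05% in the controls, with the knockout replicates 2, 3 and 5 above every other library. The Foxp3 row held 286 to 345 CPM in the transgenic libraries, 258 to 356 in the knockout libraries and 326 to 370 in the controls. The row of Ikzf2, another Treg gene, which lies beyond the first 12 Mb, held 191 to 265 CPM in the transgenic group and 179 to 301 CPM in the knockout group, all above the controls at 138 to 166 CPM. The 6 rows of the Treg list, Il2ra among them, summed to 1000 to 1110 CPM in the transgenic group, 855 to 989 CPM in the knockout group and 843 to 922 CPM in the control group, and the part of this in the results was not tested. Of the markers of other cells that start in the first 12 Mb, the B cell gene Fcer2a reached at most 0.891 CPM in transgenic, 3.91 in knockout and 1.47 in control libraries. The NK cell gene Ncr1 reached at most 0.307, 0.839 and 0.577 CPM in those groups. The plasma cell gene Tnfrsf17 was at 0 except in a single transgenic library, with 2 counts or 0.614 CPM. The B cell and plasma cell lists each have 2 markers in this region, of which only the named ones are given. Summed over its 3 rows, the plasma cell list spread most widely among knockout libraries, from 0.268 to 7.86 CPM. Its sums peaked at 3.56 CPM among transgenic libraries and 3.53 CPM among controls. The myeloid and B cell gene Pirb held 0.921 to 14.6 CPM in the transgenic group, 1.43 to 13.4 CPM in the knockout group and 7.57 to 14.1 CPM in the control group. Gata1, an erythroid and mast cell gene, held 9.97 to 23.8, 11.7 to 22 and 12.9 to 16.2 CPM in transgenic, knockout and control libraries. The other rows of its list, Klf1 and Hba-a1, which lie beyond the first 12 Mb, were at 0 counts in every library. The whole B cell list of 5 rows summed to 179 to 271 CPM in the transgenic libraries, 174 to 262 in the knockout libraries and 215 to 302 in the controls, and the part of other cells in the results was not tested.

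The comparisons ask how the rows differ when Nfkbid is added or lost. In transgenic against control Tregs, 1 of the 5 tested rows of the 6 genes was called, Il15ra, which rose. Over the whole set of 9986 rows tested, 7.4% were called, 739 in all, and 5.23% were called higher. In knockout against control Tregs, 0 of the 5 were called by edgeR's quasi-likelihood test, with 1 of them, Il2ra, called by DESeq2 and 0 by limma with voom. There, 1.89% of all rows were called. Unadjusted values under 0.05 came from edgeR for 2 of the 5 rows, Il2ra and Osm, and for 22.4% of all rows. In transgenic against knockout Tregs, 2 of the 5 were called, Il15ra higher and Osm lower, where 10.7% of all rows were called, 6.34% higher and 4.33% lower. Among the 950 tested rows of genes in the first 12 Mb the shares called were 14.4, 4.21 and 18.4% in the 3 comparisons. The median log2 fold change of the 5 rows was 0.09, 0.35 and -0.25 in these comparisons, against -0.01, -0.02 and 0 over all rows. Transgenic and knockout groups were set against the same controls, and every comparison with transgenic Tregs also sets unpooled against pooled libraries.

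**Figure D2:**
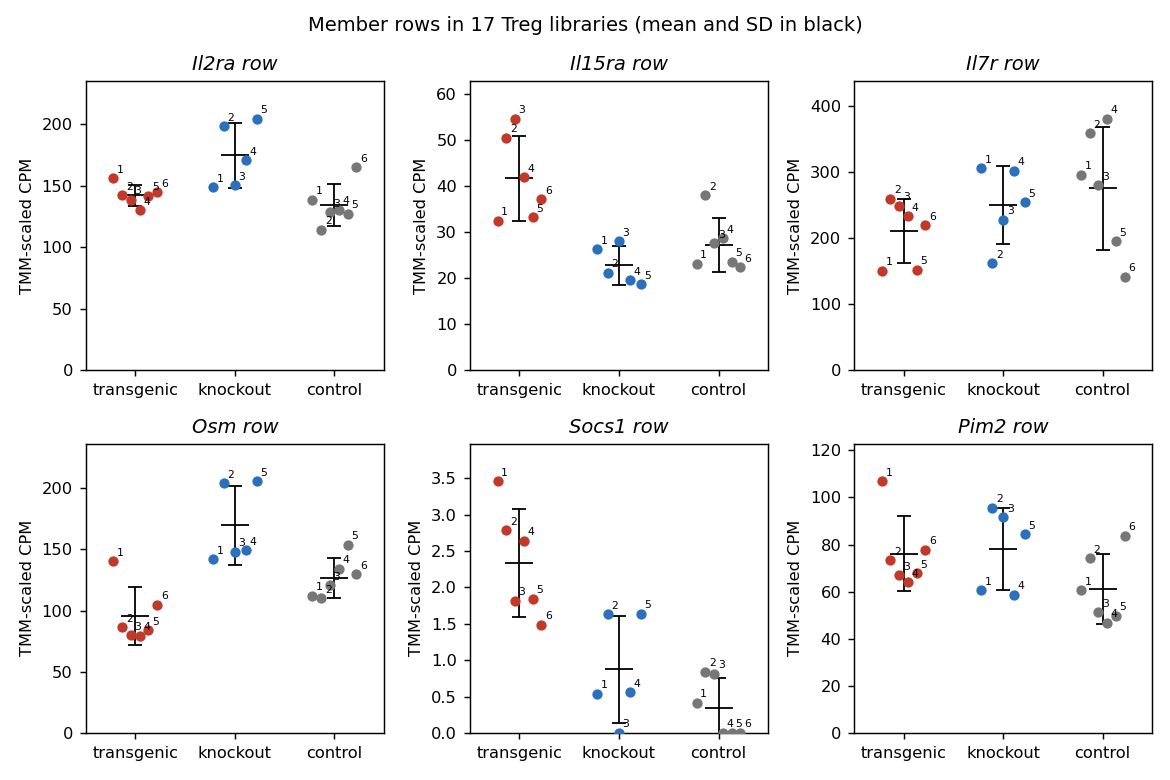
TMM-scaled CPM of the 6 rows in each of 17 libraries, by genotype, with replicate numbers beside the points and the mean and SD in black. Il15ra is high in transgenic libraries, Osm is low in them apart from replicate 1, and Socs1 reaches at most 3.45 CPM.

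Il2ra encodes CD25, the chain that gives the interleukin-2 receptor its high affinity. Its row had a lowest, median and highest value of 130, 142 and 156 CPM in transgenic libraries. The knockout libraries held 148.5, 198.2, 150.5, 170.8 and 204.3 CPM, and the controls had a lowest, median and highest value of 114, 129 and 165 CPM. Knockout replicates 2 and 5 stood above all others, while knockout replicates 1 and 3 did not exceed the highest control. The mean and SD were 142.3 ± 8.47 CPM over the 6 transgenic libraries, 174.5 ± 26 over the 5 knockout libraries and 133.9 ± 17.1 over the 6 controls.

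The log2 fold change of Il2ra was 0.38 in knockout against control (95% interval 0.15 to 0.61, edgeR adjusted p = 0.066), -0.29 in transgenic against knockout (95% interval -0.52 to -0.07, edgeR adjusted p = 0.089) and 0.09 in transgenic against control Tregs (95% interval -0.13 to 0.3, edgeR adjusted p = 0.74). None passed the threshold. The first passed it in 6 of 31 alternatives and the second in 2, with only rows in the first 12 Mb (edgeR adjusted p = 0.029) and without knockout replicate 1 (edgeR adjusted p = 0.044). For knockout against control, with the mitochondrial share as a covariate (added after the data had been seen) the value was 0.21 (edgeR adjusted p = 0.78). Between transgenic and control Tregs the 95% interval, not adjusted for the number of rows, held both a fall and a rise, from -0.13 to 0.3. The adjacent Il15ra row rose in transgenic against control Tregs at the same time, and a difference between the 2 changes was not tested.

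Il15ra encodes the alpha chain that holds interleukin-15 and presents it to neighbouring cells. Its row had a lowest, median and highest value of 32.5, 39.5 and 54.6 CPM in transgenic libraries. The knockout libraries held 26.3, 21.2, 27.9, 19.6 and 18.7 CPM, and the controls had a lowest, median and highest value of 22.4, 25.6 and 38 CPM. Every transgenic library lay above every knockout library, and transgenic and control libraries overlapped because control replicate 2 lay above 3 of the transgenic libraries. Transgenic and knockout libraries did not overlap in 2 of the 5 tested rows, Il15ra (higher) and Osm (lower), and in 6.2% of all rows tested, 4.24% with transgenic higher and 1.96% with transgenic lower. In the comparisons with controls 0 of the 5 had groups apart, where 7.11% of all rows did for transgenic and 2.74% for knockout Tregs. The mean and SD were 41.6 ± 9.17 CPM over the 6 transgenic libraries, 22.7 ± 4.15 over the 5 knockout libraries and 27.2 ± 5.85 over the 6 controls.

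The Il15ra row rose by 0.87 on the log2 scale in transgenic against knockout Tregs, 1.83-fold (SE 0.18, edgeR adjusted p = 0.0025). In transgenic against control Tregs it rose by 0.62, 1.53-fold (SE 0.17, edgeR adjusted p = 0.025). In knockout against control Tregs the log2 fold change was -0.25 (95% interval -0.63 to 0.12, edgeR adjusted p = 0.4), so the order of levels was transgenic, control, knockout, with the last pair not told apart. The call against knockout was kept in all 31 alternatives. The call against control ended without transgenic replicate 2 or 3 or without control replicate 1, 3, 5 or 6, with log2 fold changes of 0.52 to 0.62 there and adjusted p from 0.052 to 0.075. In a bulk sample, more cells of a type and more RNA per cell cannot be told apart.

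Il7r encodes the alpha chain of the interleukin-7 receptor, which naive and memory T cells carry. In transgenic libraries its row had a lowest, median and highest value of 151, 227 and 260 CPM. The knockout libraries held 305.9, 162.1, 228.1, 302.2 and 254.4 CPM, and the controls had a lowest, median and highest value of 141, 288 and 381 CPM. The spread within each group was wide, from 22.8% of the mean in transgenic to 33.7% in control libraries, and all groups overlapped. The log2 fold change was -0.38 in transgenic against control (95% interval -0.82 to 0.05, edgeR adjusted p = 0.34), -0.14 in knockout against control (95% interval -0.59 to 0.32, edgeR adjusted p = 0.73) and -0.25 in transgenic against knockout Tregs (95% interval -0.7 to 0.21, edgeR adjusted p = 0.53). The flanking rows Capsl and Spef2 held few counts, with means of 0.461 and 2.43 CPM over all libraries.

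Osm encodes oncostatin M, a cytokine of the interleukin-6 family that activated T cells and myeloid cells make. In transgenic libraries its row had a lowest, median and highest value of 79.5, 85.2 and 140 CPM. The knockout libraries held 141.8, 204.1, 148, 149.5 and 205.6 CPM, and the controls had a lowest, median and highest value of 110, 125 and 154 CPM. The transgenic libraries were low apart from replicate 1, whose 140.3 CPM lay just under the lowest knockout value, and knockout replicates 2 and 5 were the highest of all 17. The mean and SD were 95.8 ± 23.7 CPM over the 6 transgenic libraries, 169.8 ± 32.1 over the 5 knockout libraries and 126.8 ± 16.4 over the 6 controls.

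The Osm row fell by 0.83 on the log2 scale in transgenic against knockout Tregs (SE 0.15, edgeR adjusted p = 0.00084), to 0.564 times the knockout level, and the call was kept in all 31 alternatives. The controls lay between, with a log2 fold change of -0.41 for transgenic against control (95% interval -0.71 to -0.1, edgeR adjusted p = 0.1) and 0.42 for knockout against control (95% interval 0.11 to 0.73, edgeR adjusted p = 0.12). Neither passed the threshold. Without transgenic replicate 1 both did, at -0.54 (edgeR adjusted p = 0.0088) and 0.42 (edgeR adjusted p = 0.049). With the mitochondrial share as a covariate the knockout value was 0.2 (edgeR adjusted p = 0.91), and transgenic against control was called at -0.44 (edgeR adjusted p = 0.027).

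**Figure D3:**
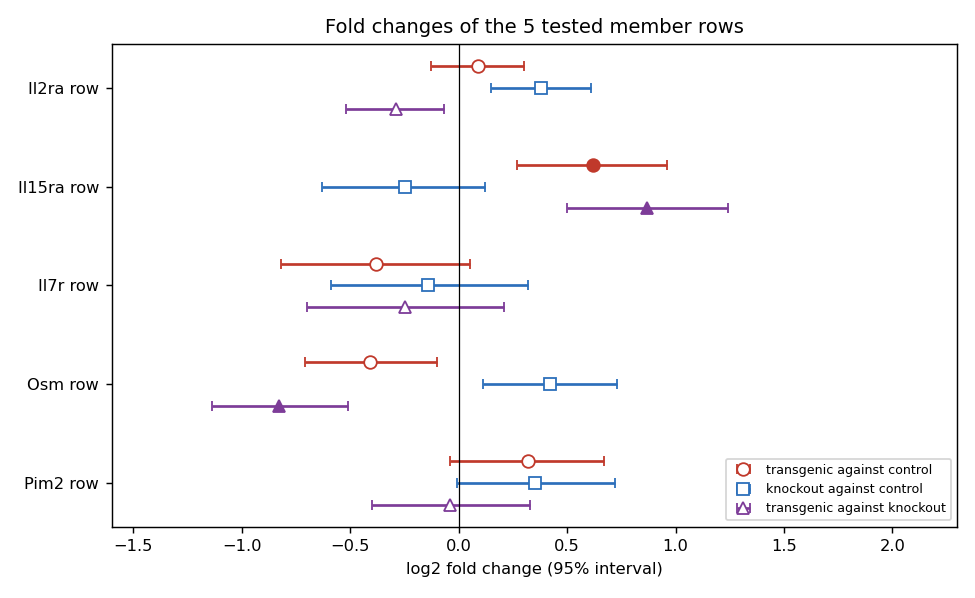
Log2 fold changes of the 5 tested rows with 95% intervals in 3 comparisons. Filled symbols passed the edgeR adjusted p of 0.05, which were Il15ra in both comparisons with transgenic Tregs and Osm in transgenic against knockout.

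Lif, which starts 16.5 kb after Osm, had another order, with transgenic libraries highest and controls lowest. Its row held 37.3 to 56.3 CPM in transgenic libraries, against 23.2 to 37.8 CPM in knockout and 13.7 to 22.4 CPM in control libraries. Transgenic and knockout libraries each lay above every control, and transgenic replicate 3 lay under knockout replicate 2. The row rose by 1.31 on the log2 scale in transgenic against control (SE 0.15, edgeR adjusted p = 4e-06), by 0.69 in knockout against control (SE 0.16, edgeR adjusted p = 0.028) and by 0.62 in transgenic against knockout Tregs (SE 0.16, edgeR adjusted p = 0.012). On the other side of Osm the Castor1 row, of an arginine sensor, was not called in any comparison. The rows of OSMR and LIFR, the receptors of these cytokines, were near the floor, with Osmr at 0 counts in every library and Lifr at 0 to 7.

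**Figure D4:**
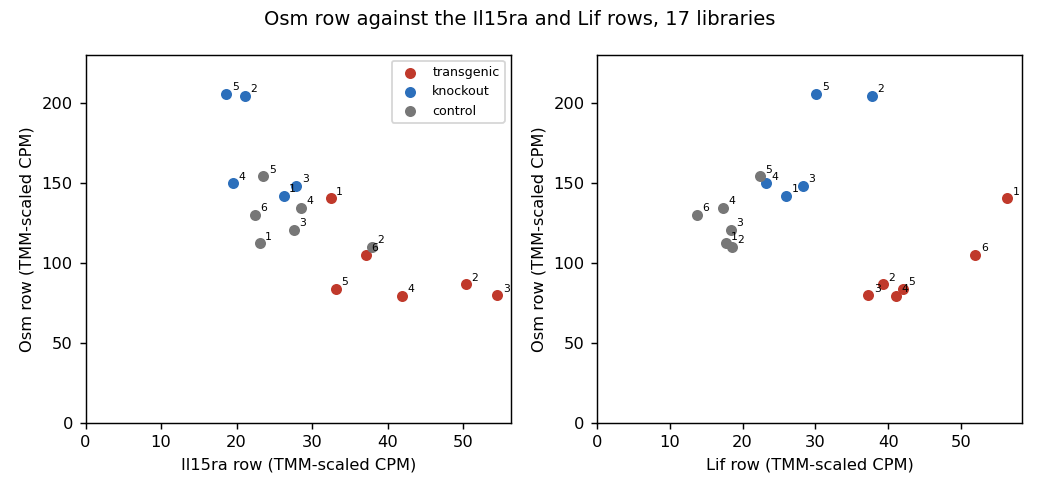
TMM-scaled CPM of the Osm row against the Il15ra row (left) and the Lif row (right) in 17 libraries, with replicate numbers. Transgenic libraries combine high Il15ra and Lif with low Osm, apart from replicate 1 with 140.3 CPM of Osm, and Lif also separates knockout from control libraries.

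Pim2 encodes a serine and threonine kinase that promotes survival and growth of lymphocytes. Its row had a lowest, median and highest value of 63.9, 70.6 and 107 CPM in transgenic libraries. The knockout libraries held 60.6, 95.7, 91.5, 58.7 and 84.5 CPM, and the controls had a lowest, median and highest value of 46.8, 56 and 83.8 CPM. Transgenic replicate 1 was the highest of all, and knockout replicates 2, 3 and 5 stood above replicates 1 and 4. The log2 fold change was 0.32 in transgenic against control (95% interval -0.04 to 0.67, edgeR adjusted p = 0.33), 0.35 in knockout against control (95% interval -0.01 to 0.72, edgeR adjusted p = 0.24) and -0.04 in transgenic against knockout Tregs (95% interval -0.4 to 0.33, edgeR adjusted p = 0.92). The flanking Otud5 and Slc35a2 rows were not called in any comparison, and both had a log2 fold change of 0.34 in knockout against control Tregs.

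Socs1 encodes a SOCS-box protein that binds and inhibits JAK kinases. Its row held 5 to 10 counts in transgenic libraries, a lowest, median and highest value of 1.49, 2.24 and 3.45 CPM. The knockout libraries held 2, 5, 0, 2 and 5 counts, and the controls 2, 3, 3, 0, 0 and 0. Every transgenic library lay above every control, as in 4.66% of the rows that were tested, and the lowest transgenic library lay under knockout replicates 2 and 5. The row did not pass the filter on low counts. With no filter the log2 fold change was 2.62 in transgenic against control (edgeR adjusted p = 0.054), 1.16 in knockout against control (edgeR adjusted p = 0.51) and 1.46 in transgenic against knockout Tregs (edgeR adjusted p = 0.32), values that such counts measure poorly. Over all 6 libraries each, the transgenic group held 45 counts and the control group 8.

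Within each genotype, the library with the highest mitochondrial share stood at an end of its group in several of these rows. The library with the highest share was replicate 1 among transgenic (24.81%), replicate 5 among knockout (28.16%) and replicate 6 among control libraries (24.05%). Each of these 3 held the highest Il2ra value of its group. The same libraries were highest in Osm among transgenic and knockout libraries, and in Pim2 among transgenic and control libraries. For Il15ra they were the lowest of their groups in all 3. For Il7r they were the lowest among transgenic and control libraries, while among knockout libraries replicate 2 was. With the mitochondrial share as a covariate the log2 fold changes of Il15ra were 0.78 in transgenic against knockout (edgeR adjusted p = 0.021) and 0.63 in transgenic against control Tregs (edgeR adjusted p = 0.013), and that of Osm in transgenic against knockout Tregs was -0.64 (edgeR adjusted p = 0.011). Without these 3 libraries the values were 0.87, 0.63 and -0.89, all called. Pim2 in knockout against control Tregs was -0.06 with the covariate, 0.35 in the main fit and 0.44 without these 3 libraries. In the same comparison Il2ra and Osm were 0.21 and 0.2 with the covariate, and 0.39 and 0.36 without these libraries. Knockout replicates 2, 3 and 5 had the highest shares of all, so share and genotype cannot be fully told apart. The other knockout libraries with a high share differed from each other. Replicate 2 (25.56%) held 198.2 CPM of Il2ra and 21.16 CPM of Il15ra. Replicate 3 (25.31%) held 150.5 CPM of Il2ra, under replicate 4, and 27.94 CPM of Il15ra, the highest of its group.

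**Figure D5:**
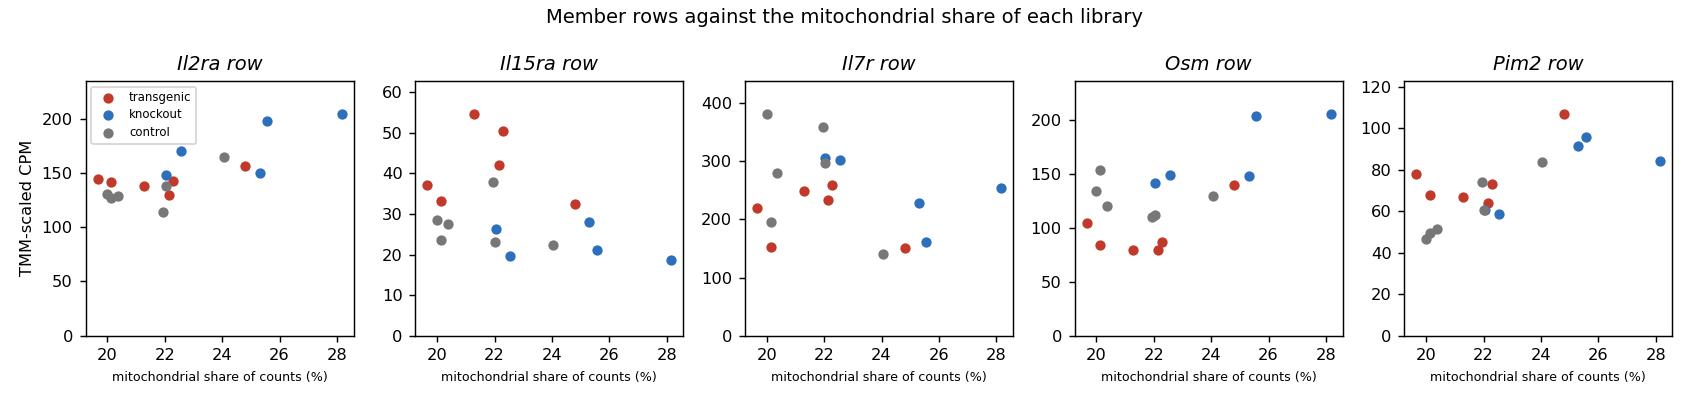
TMM-scaled CPM of the 5 tested rows against the mitochondrial share of counts (%) of each of 17 libraries. The library furthest right in each genotype (24.81% transgenic, 28.16% knockout, 24.05% control) is the highest of its group in Il2ra and the lowest in Il15ra.

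The rows with the closest pattern were sought over the 17 libraries among 691 named protein-coding rows of the first 12 Mb, by Pearson's r of log2 CPM, as a description. Those closest to Osm were Map4k2 (r = 0.9), Zfp263 (r = 0.89) and Clcf1 (r = 0.88), the last named after another cytokine of the interleukin-6 family. Those closest to Il15ra were Ppp1r14c, Samd9l and Ms4a6c, with r of 0.84, 0.82 and 0.81. Closest to Il2ra were Celf2, Mtpap and Gpkow, with r of 0.89, 0.88 and 0.83, and closest to Pim2 were Msantd4, Tmem68 and Larp4b, with r of 0.89, 0.87 and 0.87. Il7r had Zc3h7a (r = 0.87), Ankrd16 (r = 0.77) and Ppp1r12c (r = 0.72). The points share library depth and the genotype groups.

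Of 45 other genes of JAK and STAT cytokine signalling, 27 were tested. In transgenic against control Tregs 5 rose and 3 fell, with a median log2 fold change of -0.02 over the 27, beside the 7.4% of all rows called. In knockout against control Tregs 1 of the 27 rose, the Lif row, where 1.89% of all rows were called. In transgenic against knockout Tregs 3 rose and 1 fell, where 10.7% of all rows were called. The 5 and 3 of 27 in transgenic against control Tregs are above that comparison's share of all rows. The counts in the comparisons with knockout Tregs are near theirs. The list was chosen with earlier results of these data known. Only 5 of the 45 genes start in the first 12 Mb, which are Foxp3, Lif, Lifr, Osmr and Il7. The other rows lie farther out, where 0.45 kb per Mb would move them by more than the 5.27 kb of Il15ra. That move left 2.4% of the exon bases of Il15ra on its own exons. Names of rows farther out are therefore less secure still, and whether those rows hold their genes is not established. The Il7 row held 0 to 5 counts.

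Among receptors of the list, the Il4ra row, the interleukin-4 receptor alpha chain, rose by 0.59 on the log2 scale in transgenic against control Tregs (SE 0.1, edgeR adjusted p = 0.00064), with 301 to 421 CPM in transgenic against 210 to 243 CPM in control libraries. The Il6ra row, the interleukin-6 receptor, fell by 0.93 (SE 0.17, edgeR adjusted p = 0.00071), with 48.4 to 88.5 CPM in transgenic against 119 to 143 CPM in control libraries. The Ifnar1 row, a type I interferon receptor chain, fell by 1.2 on the log2 scale (SE 0.35, edgeR adjusted p = 0.041). It held 2 to 7 counts in transgenic against 12 to 20 counts in control libraries. In knockout against control Tregs the log2 fold changes were 0.28 for Il4ra, -0.51 for Il6ra and -0.95 for Ifnar1. For Ifnar1 every knockout library lay under every control, where 2.74% of all rows had groups apart. In transgenic against knockout Tregs the changes were 0.31, -0.41 and -0.24. None of these rows was called in either comparison with knockout Tregs. Among signal transducers, the Stat3 row rose by 0.45 in transgenic against knockout Tregs (SE 0.13, edgeR adjusted p = 0.031), with 87.7 to 152 CPM in transgenic against 70.7 to 90.9 CPM in knockout libraries.

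Among STAT-induced genes of the list, the Cish row, a feedback inhibitor of STAT5, rose by 1.49 in transgenic against control Tregs (SE 0.41, edgeR adjusted p = 0.028), with 5.57 to 12.1 CPM against 0.562 to 5.77 CPM in control libraries. The Ccnd2 row, the cell cycle gene cyclin D2, rose by 1.16 in transgenic against control Tregs (edgeR adjusted p = 0.00022) and by 0.77 in transgenic against knockout Tregs (edgeR adjusted p = 0.012), with 62.5 to 135 CPM in transgenic, 44.7 to 80.4 CPM in knockout and 32.3 to 53.5 CPM in control libraries. The Socs3 row, a feedback inhibitor of STAT3, fell by 1.03 in transgenic against control Tregs (SE 0.29, edgeR adjusted p = 0.029), with 1.49 to 4.64 CPM against 5.01 to 7.27 CPM in control libraries. The Bcl2 row, an inhibitor of cell death, fell by 0.59 in transgenic against knockout Tregs (SE 0.18, edgeR adjusted p = 0.042), with 16.1 to 22.6 CPM in transgenic against 16.4 to 38.7 CPM in knockout libraries, ranges that overlap.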

How the data were processed

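The table that the authors deposited holds expected counts per gene in 17 libraries, with no scaling for depth or length. Per the series' design text, polyA RNA libraries carried molecular identifiers, and per the submitters' processing notes the tools included Bowtie2 and edgeR with the build GRCm38. The series' design text names Ensembl 102 transcripts. Neither the strand setting nor any removal of duplicates by identifier is given in the sources used here. Floors cover counting error only. Of the values, 5.87% were not whole, and the counts were rounded.

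Of 47643 rows, 47224 matched a symbol and coordinates in the GENCODE annotation used here, on the same build. Rows were tested with the quasi-likelihood F test of edgeR 4.0.16 in R 4.3.3, using TMM factors and filterByExpr in a fit to all 17 libraries at once. Adjusted p-values are Benjamini-Hochberg values over the 9986 rows tested, with a threshold of 0.05. Standard errors and 95% intervals were derived from each fold change and its F. CPM are counts scaled to a common TMM library size. The fit was tested on simulated data. Nothing in the labels says that libraries came from separate litters or days, so the p-values reflect only the spread among libraries, which may be technical, and no pair within a group agreed within sampling noise.

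The 6 genes and the other lists were chosen with earlier results of these data known. Named beside them are the flanking protein-coding genes, the 3 rows closest to each by Pearson's r over libraries, the listed pathway genes that were called or lie in the first 12 Mb (1 of which is not reported here), and marker genes of other cell types. DESeq2 1.42.0, limma 3.58.1 with voom, other normalizations and filters, 2-group fits, a replicate block, counts left unrounded, tables without mitochondrial rows and fits without single libraries were tried beside the main fit. Promoter sequences are RefSeq's, for GRCm38.p6, and 5 of the 6 genes had one. Moving exons along the chromosome used only the mean over all libraries.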

Additional observations from a re-analysis of the deposited data

Results flagged for a closer look

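The Pim2 row of transgenic replicate 1 held 107 CPM, far from the other 5 transgenic libraries, which held 63.9 to 77.8 CPM. This library also had the highest mitochondrial share of its group, 24.81%, and whether that bears on Pim2 was not tested. Control replicate 1 had a total of 4726615 counts, far above the other 5 controls. These were 2 of 21 groups of values examined for a single distant library, and chance flags about 1 group in 20.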

How the results depend on the processing

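Of the calls on the 6 genes, Il15ra and Osm in transgenic against knockout Tregs were kept in all 31 alternatives, with log2 fold changes of 0.78 to 0.96 and -0.96 to -0.6, and no call reversed. Members called in transgenic against control Tregs numbered 1, and 2 with only rows in the first 12 Mb, without knockout replicates 2, 3 and 5, with the mitochondrial share as a covariate or without the library of highest mitochondrial share in each group, Osm being the row gained. The last 2 of these alternatives were chosen after seeing the data. In knockout against control Tregs, 0 were called, but 1, Il2ra, with only rows in the first 12 Mb and with DESeq2. Leaving out 1 library at a time gave 0 to 2, 0 to 2 and 2 to 3 members called in transgenic against control, knockout against control and transgenic against knockout Tregs.

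Rows called higher and lower numbered 522 and 217 in transgenic against control, 88 and 101 in knockout against control and 633 and 432 in transgenic against knockout Tregs. With only rows in the first 12 Mb, where fewer rows are tested, these were 128 and 58, 24 and 45, and 143 and 91. With only the 2 groups compared they were 785 and 441, 34 and 42, and for transgenic against knockout 203 lower. Without knockout replicates 2, 3 and 5 they were 879 and 469, 10 and 33, and 208 lower. With the mitochondrial covariate, 406 were lower in transgenic against control, 13 higher and 41 lower in knockout against control, and 205 lower in transgenic against knockout Tregs. In knockout against control Tregs, no filter gave 223 and 348, DESeq2 340 and 265, limma with voom 50 higher, and leaving out each group's library of highest mitochondrial share 57 higher. Leaving out 1 library gave 389 to 596 higher and 140 to 280 lower in transgenic against control, 29 to 592 and 55 to 532 in knockout against control, and 473 to 815 and 262 to 826 in transgenic against knockout Tregs. The knockout against control counts rose by over 1.5 times without knockout replicate 4 (592 and 532), knockout replicate 1 (448 and 358) or transgenic replicate 1 (289 and 229), and the higher count dropped to 29 to 50 without knockout replicate 2, 3 or 5 or any control but replicate 2. The lower count there dropped to 55 to 61 without control replicate 1, 3 or 5 and without replicate 3 or 5 of the knockout group. In transgenic against knockout Tregs the lower count was 826 without transgenic replicate 1, 649 without knockout replicate 4, and 262 to 277 without transgenic replicate 4, 5 or 6 or knockout replicate 5. In transgenic against control Tregs it was 143 without transgenic replicate 5 and 140 without control replicate 3. The cause was not tested.

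A replicate block left 23 higher and 44 lower in knockout against control and 214 lower in transgenic against knockout Tregs. The replicate numbers do not pair the libraries: of 16 same-numbered pairs, 1 correlated above 0.1, with a range of -0.517 to 0.364. With the block, the calls on Il15ra and Osm were kept. The Socs1 row held only 0 to 10 counts a library, and the reason was not tested.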
